A study of Homo sapiens with 5 samples.

Results

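SP1, SP2, SP3, SP4, KLF3, KLF4, KLF5, KLF6, KLF10 and KLF16 are 10 genes of the SP and KLF family, measured here in HCT116 cells with and without knockdown of ELK4. They were taken by symbol from the 20026 genes of the deposited files, and all 10 were found. HCT116 is an epithelial line from a human colorectal carcinoma, and ELK4 is an ETS transcription factor. The 5 samples sequenced were 2 of cells transduced with the pLKO.1 lentiviral vector and 3 of cells stably expressing shELK4. Each of the 3 shELK4 samples carried a different shRNA (shELK4_1, shELK4_2 and shELK4_3), so the effect of a hairpin and that of its sample cannot be told apart. All cells had passed through lentiviral infection and puromycin selection. The labels do not say whether the samples came from separate cultures, so the p-values measure the spread between these samples only. The test took the 3 hairpins as replicates of the knockdown. Its spread therefore joins differences between hairpins with those between the 2 samples of the vector.

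SP and KLF proteins share a DNA-binding domain of C2H2 zinc fingers at the C terminus and bind GC boxes and the related CACCC boxes of promoters. SP1, SP3 and SP4 carry glutamine-rich activation domains. SP1 is a widely expressed activator, SP3 activates or represses depending on the promoter, and the KLF members include activators such as KLF5 and KLF6 and repressors such as KLF3 and KLF16. In the intestinal epithelium KLF5 marks the proliferating crypt and KLF4 the differentiated cells, and both are long-studied genes of colorectal cancer. The study examined SP1 and SP3 as partners of ELK4, so the question here is whether the mRNAs of the GC-box factors themselves changed when ELK4 was lowered.

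The promoter windows of SP1 and SP3, the partners under study, and of KLF4, the member with the largest change, show the GC boxes that such factors bind. Each is the RefSeq window on GRCh38.p14, from 250 bases before to 50 bases after the annotated gene start, read 5′ to 3′ on the strand of the gene. SP1 is at chr12:53379926-53380225 on the plus strand, SP3 at chr2:173965324-173965623 on the minus strand and KLF4 at chr9:107489720-107490019 on the minus strand. Capitals mark GGGCGG, the core of the GC box, on either strand, and in SP3 also CCGGAA, an ETS core, on either strand.
SP1: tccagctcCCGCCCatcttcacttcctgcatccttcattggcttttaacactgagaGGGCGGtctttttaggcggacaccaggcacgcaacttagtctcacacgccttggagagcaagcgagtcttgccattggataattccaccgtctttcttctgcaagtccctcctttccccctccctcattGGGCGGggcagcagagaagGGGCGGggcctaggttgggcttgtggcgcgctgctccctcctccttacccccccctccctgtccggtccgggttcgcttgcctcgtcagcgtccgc
SP3: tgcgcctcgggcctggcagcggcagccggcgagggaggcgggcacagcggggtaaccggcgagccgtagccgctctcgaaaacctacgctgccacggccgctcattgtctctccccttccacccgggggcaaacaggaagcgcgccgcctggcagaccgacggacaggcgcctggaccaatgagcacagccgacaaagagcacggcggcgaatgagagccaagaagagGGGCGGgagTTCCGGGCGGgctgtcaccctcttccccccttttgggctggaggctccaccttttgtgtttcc
KLF4: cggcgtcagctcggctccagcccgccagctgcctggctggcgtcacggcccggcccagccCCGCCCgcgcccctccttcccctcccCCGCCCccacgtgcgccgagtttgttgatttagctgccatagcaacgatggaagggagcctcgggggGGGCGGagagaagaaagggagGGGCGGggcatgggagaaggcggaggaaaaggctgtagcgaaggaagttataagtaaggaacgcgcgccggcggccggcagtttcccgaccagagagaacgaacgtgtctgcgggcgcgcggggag
The core GGGCGG occurred 4 times in the SP1 window, 2 times in the SP3 window and 4 times in the KLF4 window. In SP3 the CCGGAA match lies on the minus strand and shares 2 bases with the GC box nearest to the start.

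A window was found for 8 of the 10 members, all but KLF3 and KLF10. Of these 8, 7 held GGGCGG, compared with 73.3% of 8621 windows of tested genes and 45.0% of all 35116 windows of the same length. KLF16 had the most matches, 7, of which 2 share 1 base, and KLF5 had none. The KLF5 window is not that of its canonical GENCODE transcript, which starts 4029 bases further downstream, whereas for the other 7 the RefSeq and canonical starts coincided. CACCC occurred on either strand in 3 of the 8 windows, those of SP3, SP4 and KLF5, and in 63.2% of windows of tested genes. None of these matches in the members overlapped a GGGCGG match, although the motifs can share bases. CCGGAA occurred in 1 of the 8, that of SP3, and in 32.2% of windows of tested genes. It was the only ETS sequence searched. The paper gives the shared ETS core as GGA(A/T), which other stretches of these windows also hold, those of SP1 and KLF4 included. The CArG box, the site of the ELK4 cofactor SRF, occurred in 0 of the 8 and in 1.03% of windows of tested genes. These matches describe letters in a short window and say nothing of binding.

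The values are FPKM, fragment numbers scaled to the length of the transcript and to the mapped reads of the sample, which the authors calculated with Cufflinks. They allow levels of different genes to be compared per length. An FPKM does not hold its own number of reads, so absolute depth is unknown, but among values under 0.1 the most common ratio of a sample to pLKO.1 replicate 1 was 1.04 to 1.11. ELK4 itself stood at 7.60 to 8.62 FPKM with pLKO.1 and at 2.44 to 3.14 FPKM with the hairpins. The epithelial markers EPCAM and KRT18 had 157 ± 1.04 and 636 ± 4.15 FPKM in pLKO.1 (SD, n = 2). Of 10 markers of other cell types, only COL1A1 reached an FPKM of 1 (3.10 to 4.21), while CD3E and CDH5 were listed at 0 in all samples.

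In pLKO.1 cells the members spanned from 1.37 to 32.3 FPKM. KLF6 (32.3 ± 0.725 FPKM, SD, n = 2) and KLF16 (32.1 ± 2.0) were the most abundant, and their values overlapped. KLF10 followed at 25.4 ± 1.53, then KLF5 at 21.1 ± 1.57 and SP3 at 19.7 ± 1.03, the latter 2 with overlapping values. SP1 stood at 15.7 ± 0.835, KLF4 at 10.1 ± 0.666 and KLF3 at 8.48 ± 0.0384. SP2 (1.78 ± 0.0597) and SP4 (1.37 ± 0.269) were the lowest of the members, below all but 10.1% and 6.20% of tested genes. From KLF16 to KLF10, KLF10 to KLF5, and at every step from SP3 down, the 2 control values of one gene lay above both of the next. In shELK4 cells KLF10 was the highest member (34.1 ± 5.50 FPKM, SD, n = 3). KLF6 (29.0 ± 6.01) came after KLF16 (33.8 ± 3.01), and KLF4 (18.2 ± 4.46) stood above SP1 (17.7 ± 1.08). The neighbours KLF10, KLF16, KLF6 and KLF5 overlapped there, as did SP3 with KLF4, KLF4 with SP1 and SP2 with SP4.

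**Figure D1:**
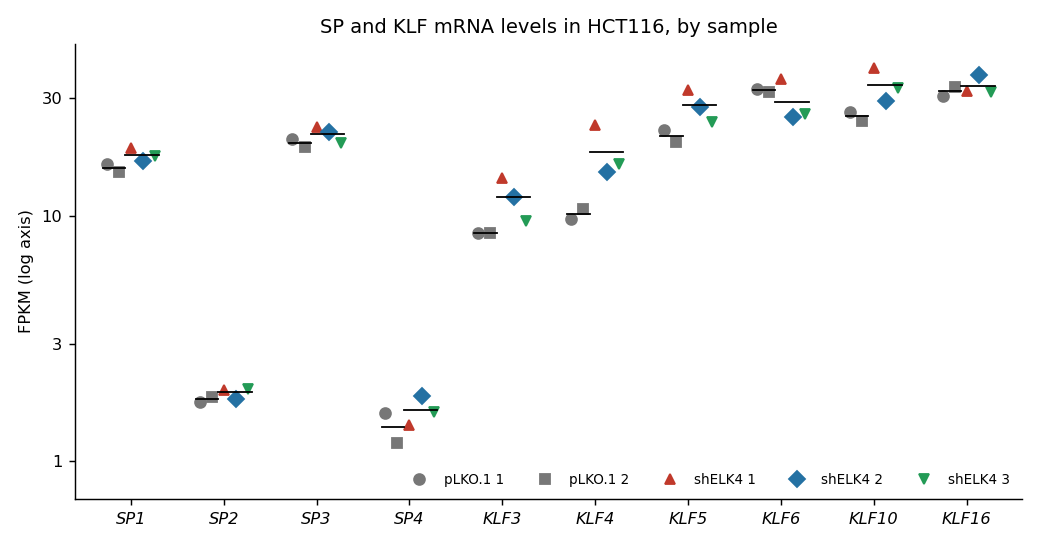
FPKM (log axis) of the 10 members in each sample, with circles and squares for the 2 pLKO.1 samples, coloured symbols for the 3 shELK4 samples, and bars at the group means. KLF4 lies between 9.67 and 10.6 in pLKO.1 and between 15.0 and 23.3 in shELK4, while the SP genes lie close to their controls.

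To compare the groups, the 10780 genes that reached an FPKM of 1 in 2 or more samples, among them all 10 members, were tested with limma on log2(FPKM + 1). A fold change on this scale is understated for low genes such as SP2 and SP4. No member passed an adjusted p of 0.05 (0 of 10, against 0.167% of tested genes). At an unadjusted p under 0.05, 4 of 10 were higher in shELK4 (KLF3, KLF4, KLF5 and KLF10) and 0 were lower, against 8.08% and 8.14% of tested genes. Without either one of the pLKO.1 samples only KLF4 remained below this unadjusted limit. The 3 shELK4 values lay above both pLKO.1 values for 5 of 10 members (SP1, KLF3, KLF4, KLF5 and KLF10) and below both for 0, against 19.1% and 21.0% of tested genes. The median log2 fold change was 0.13 over the 4 SP genes and 0.39 over the 6 KLF genes, and -0.01 over all tested genes.

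**Figure D2:**
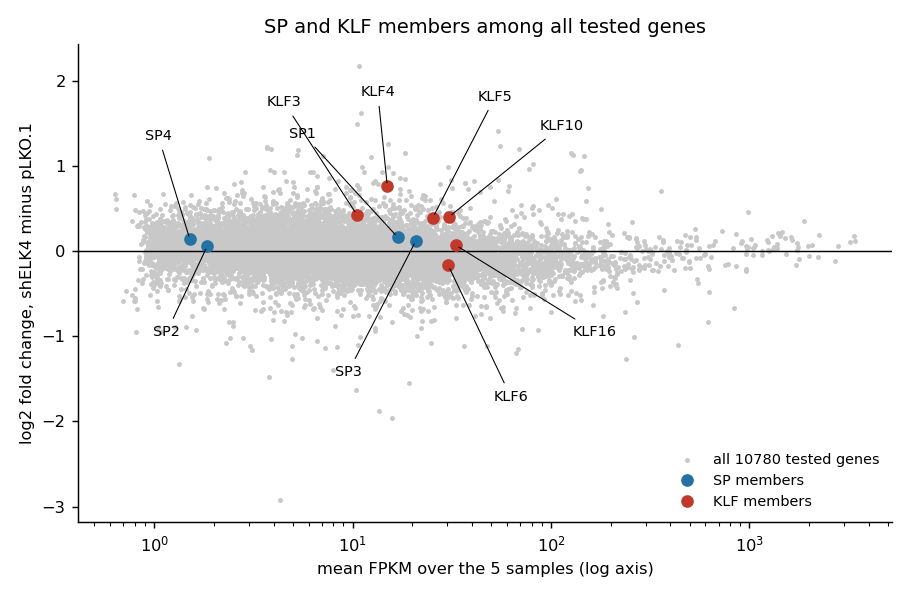
Log2 fold change (shELK4 minus pLKO.1, on log2(FPKM + 1)) against mean FPKM (log axis) for all 10780 tested genes (grey), the 4 SP members (blue) and the 6 KLF members (red). KLF4 at 0.76 stands farthest from 0, and KLF6 at -0.17 is the member below 0.

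SP1 (ENSG00000185591), the founding GC-box activator, lies on the plus strand of GRCh38 chromosome 12, from 53380176 to 53416446 in GENCODE release 44. Its level was 16.2 and 15.1 FPKM with pLKO.1, against 18.8, 16.7 and 17.4 FPKM with shELK4_1, shELK4_2 and shELK4_3. The groups did not overlap, but the lowest knockdown sample was only slightly above the higher control. The hairpins stood at 1.07 to 1.2 times the control mean, and the 95% interval of the log2 fold change was from -0.07 to 0.39 (adjusted p = 0.434 from limma).

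SP3 (ENSG00000172845), which competes with SP1 for the same sites, is a minus-strand gene of chromosome 2 (173880850 to 173965373). Its level was 20.5 and 19.0 FPKM with pLKO.1, against 23.0, 21.9 and 19.7 FPKM with shELK4_1, shELK4_2 and shELK4_3. The third hairpin lay between the controls, so the groups overlapped. The first and second hairpins stood at 1.16 and 1.11 times the control mean and the third at its level, and the 95% interval of the log2 fold change was from -0.12 to 0.36 (adjusted p = 0.596 from limma). The SP1 to SP3 ratio of FPKM was 0.793 and 0.792 in the controls and 0.819, 0.762 and 0.883 in shELK4_1, shELK4_2 and shELK4_3, values on both sides of the controls.

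SP2 (ENSG00000167182, chromosome 17, 47896150 to 47928957), a family member with a divergent binding preference, had 1.74 and 1.82 FPKM with pLKO.1, against 1.95, 1.79 and 1.96 FPKM with shELK4_1, shELK4_2 and shELK4_3. SP4 (ENSG00000105866, chromosome 7, 21428043 to 21514822), best known from neurons, had 1.56 and 1.18 FPKM, against 1.40, 1.84 and 1.58 FPKM in the same order. Both overlapped between groups. The log2 fold change was 0.06 (95% interval from -0.16 to 0.28, adjusted p = 0.779 from limma) for SP2 and 0.14 (from -0.16 to 0.43, adjusted p = 0.616 from limma) for SP4. Summed over the 4, the SP level was 40.0 and 37.1 FPKM with pLKO.1 and 45.2, 42.3 and 40.7 FPKM with the 3 hairpins.

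KLF4 (ENSG00000136826), a zinc finger factor of differentiating gut epithelium, is a minus-strand gene of chromosome 9 (107484852 to 107490482). It had 9.67 and 10.6 FPKM with pLKO.1, against 23.3, 15.0 and 16.2 FPKM with shELK4_1, shELK4_2 and shELK4_3. All 3 knockdown samples were above both controls, with shELK4_1 well above the other 2. They stood at 2.29, 1.48 and 1.60 times the control mean, while the controls differed 1.10 times. The log2 fold change was 0.76 (standard error 0.18, 95% interval from 0.32 to 1.2, unadjusted p = 0.00504 and adjusted p = 0.138 from limma), and 1.09% of tested genes had a larger absolute change. With a weight for each group, KLF4 passed (adjusted p = 0.0315 from limma), but 413 of all tested genes passed there, against 18 in the main fit. Over the other alternatives that keep both pLKO.1 samples, KLF4 did not pass (adjusted p = 0.0740 to 0.237 from limma). It did not pass without either pLKO.1 sample. KLF4 was the only 1 of the 10 members higher by at least 0.5 on the log2 scale with all 3 hairpins, as were 0.705% of tested genes.

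KLF5 (ENSG00000102554, plus strand of chromosome 13, 73054976 to 73077541), the proliferative counterpart of KLF4 in the crypt, had 22.2 and 20.0 FPKM with pLKO.1, against 32.6, 27.8 and 24.1 FPKM with shELK4_1, shELK4_2 and shELK4_3. All 3 were above both controls, with the third hairpin close to them. The log2 fold change was 0.39 (standard error 0.14, 95% interval from 0.06 to 0.72, unadjusted p = 0.0283 and adjusted p = 0.250 from limma). The KLF4 to KLF5 ratio of FPKM was 0.435 and 0.530 in the controls and 0.714, 0.541 and 0.675 with the hairpins, all above the controls, though shELK4_2 only just.

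KLF3 (ENSG00000109787, plus strand of chromosome 4, 38664197 to 38701517), a repressor that recruits CtBP, had 8.45 and 8.50 FPKM with pLKO.1, against 14.2, 11.9 and 9.54 FPKM with shELK4_1, shELK4_2 and shELK4_3. The controls were nearly equal, and the hairpins spread over 1.48 times from lowest to highest, all above them. The log2 fold change was 0.43 (standard error 0.16, 95% interval from 0.05 to 0.80, unadjusted p = 0.0319 and adjusted p = 0.262 from limma).

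KLF10 (ENSG00000155090), the TGF-β-inducible early gene, had 26.5 and 24.3 FPKM with pLKO.1, against 40.0, 29.2 and 33.0 FPKM with shELK4_1, shELK4_2 and shELK4_3. All 3 were above both controls, and here shELK4_2 was the lowest. The log2 fold change was 0.40 (standard error 0.14, 95% interval from 0.06 to 0.74, unadjusted p = 0.0269 and adjusted p = 0.248 from limma).

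KLF6 (ENSG00000067082, minus strand of chromosome 10, 3775996 to 3785281), an immediate early activator studied as a tumor suppressor, had 32.8 and 31.8 FPKM with pLKO.1, against 36.0, 25.3 and 25.8 FPKM with shELK4_1, shELK4_2 and shELK4_3. The first hairpin was above both controls and the other two below both. Over all samples the log2 fold change was -0.17 (95% interval from -0.55 to 0.22, adjusted p = 0.640 from limma), and without shELK4 replicate 1 it was -0.33 (unadjusted p = 0.0115 and adjusted p = 0.180 from limma).

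KLF16 (ENSG00000129911, minus strand of chromosome 19, 1852399 to 1863579), a repressor, had 30.7 and 33.5 FPKM with pLKO.1, against 32.2, 37.2 and 31.9 FPKM with shELK4_1, shELK4_2 and shELK4_3. Only shELK4_2 was outside the range of the controls. The log2 fold change was 0.07 (95% interval from -0.18 to 0.32, adjusted p = 0.780 from limma), and -0.00239 without shELK4 replicate 2. Exons of another gene cover 16.3% of the exonic bases of KLF16, 9.75% of those of KLF4 and, as the antisense gene KLF3-AS1, 3.91% of those of KLF3. In all 3 cases the other gene lies on the opposite strand. Whether the counting used strand is not given in the sources used here, so reads of these genes could be shared. The other 7 members had no such overlap.

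**Figure D3:**
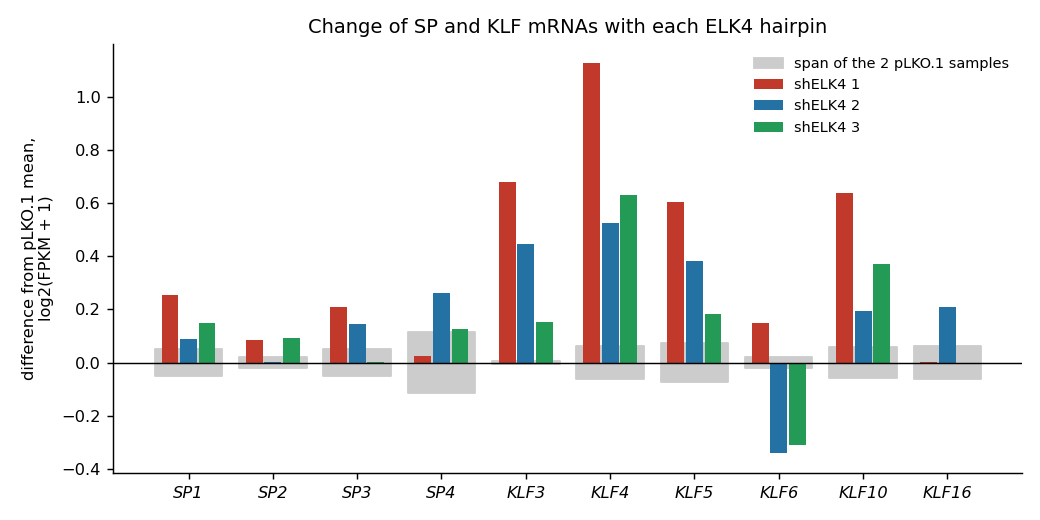
Difference of each shELK4 sample from the mean of the pLKO.1 samples, on log2(FPKM + 1), for the 10 members, with the span of the 2 controls in grey. The bars of shELK4_1 (red) are the tallest for KLF3, KLF4, KLF5 and KLF10, and those of KLF6 point in different directions.

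The hairpins differed in size. With shELK4_1, 4 of 10 members (KLF3, KLF4, KLF5 and KLF10) were higher than the control mean by at least 0.5 on the log2 scale, against 4.59% of tested genes. With shELK4_2 it was 1 of 10 (3.17% of tested genes) and with shELK4_3 1 of 10 (3.95%), KLF4 in both cases. The highest of the 3 hairpins was shELK4_1 for 7 of 10 members, as for 29.8% of tested genes. ELK4 itself was also the highest of the 3 hairpins in that sample, at 3.14 FPKM against 2.82 in shELK4_2 and 2.44 in shELK4_3. A link between the ELK4 level and the size of these changes was not tested. The summed level of the 6 KLF genes was 130 and 129 FPKM with pLKO.1 and 178, 146 and 141 FPKM in shELK4_1, shELK4_2 and shELK4_3.

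All 6 epithelial markers on the list had log2 fold changes below 0, and 4 of the 6 had groups that did not overlap, all lower in shELK4, against 21.0% of tested genes. At an unadjusted p under 0.05 there were 3 (KRT8, KRT18 and KRT19) lower, against 8.14% of tested genes, and 0 at an adjusted p under 0.05. The paper lists KRT18 among its differentially expressed genes, by a test that its methods do not name. The summed level of the 6 markers was 2707 to 2750 FPKM in pLKO.1 and 1517 to 2076 in shELK4. Within the hairpins the sum was highest in shELK4_1 and lowest in shELK4_2. EPCAM (118 FPKM) and KRT19 (478 FPKM) were instead lowest in shELK4_3, and the other markers were lowest in shELK4_2. In shELK4_1, EPCAM (166 FPKM) and CDH1 (23.1 FPKM) were above both controls. Their part in the KLF values was not tested, and in bulk RNA a larger share of cells with KLF4 and more KLF4 RNA per cell cannot be told apart.

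By Euclidean distance over the 5 log2 values, each centred on the control mean, the genes nearest to KLF4 were EHD2 (distance 0.21), NECTIN1 (0.22) and CDC25B (0.24). EHD2 had 13.6 and 13.8 FPKM in pLKO.1 and 27.2, 20.8 and 21.2 in the hairpins, the same order as KLF4. The nearest to SP1 were CCDC113, ANKRD6 and CREB1 (0.02 to 0.05), and to SP3 ZNF500, FAM114A2 and FPGT (all 0.05). As many as 602 genes lay within a distance of 0.2 of SP1 and 647 of SP3, while 0 genes lay that close to KLF4. The distance includes the size of the change, and few genes changed as much as KLF4. These counts therefore do not mark the profile of KLF4 as particular.

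Of the 16 other SP and KLF genes listed, only 5 were tested (SP6, KLF2, KLF9, KLF11 and KLF13), and the others were at low levels, with SP7 listed at 0 in all samples. At an adjusted p under 0.05 there were 0 of the 5, and at an unadjusted p under 0.05 also 0 from limma. Of the 5, 3 had log2 fold changes above 0 and 2 below, with a median of 0.05. KLF11, a TGF-β-inducible relative of KLF10, had the largest log2 fold change (0.27, adjusted p = 0.377 from limma), with 2.86 and 3.42 FPKM in pLKO.1 and 3.29, 4.29 and 4.49 in the hairpins. KLF13 had 16.0 and 16.8 FPKM in pLKO.1 and 19.5, 18.8 and 17.3 in the hairpins, all above the controls (log2 fold change 0.17, adjusted p = 0.420 from limma).

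Of 13 other zinc fingers that bind GC-rich sequence, 9 were tested, 0 passed an adjusted p of 0.05, and 1 was higher at an unadjusted p under 0.05 (limma), where 8.08% of all tested genes were. This was ZBTB7A, a POZ-domain repressor, with 7.28 and 6.97 FPKM in pLKO.1 and 11.0, 7.56 and 11.0 in the hairpins (log2 fold change 0.40, adjusted p = 0.302 from limma). Of 25 coregulators, all tested, 0 passed an adjusted p of 0.05 and 2 were higher at an unadjusted p under 0.05 (limma), a share near the 8.08% of all tested genes and so no result about coregulators. MED24, a Mediator subunit and 1 of the 2, had 14.1 and 15.1 FPKM in pLKO.1 and 19.2, 18.3 and 19.5 in the hairpins (log2 fold change 0.36, adjusted p = 0.139 from limma).

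Of 20 textbook target genes of SP and KLF factors, all tested, 9 had log2 fold changes above 0 and 11 below, with a median of -0.02. At an adjusted p under 0.05, 1 fell and 0 rose, and at an unadjusted p under 0.05, 2 were lower and 0 higher (limma), against 8.14% and 8.08% of all tested genes. CDKN1A, the p21 gene with its GC boxes, fell by 1.27 on the log2 scale (adjusted p = 0.0147 from limma), from 365 and 372 FPKM to 165, 145 and 147. With no FPKM limit, or without either pLKO.1 sample, shELK4 replicate 1 or shELK4 replicate 3, 0 of these genes passed. CCND1, the gene for cyclin D1, had 370 and 376 FPKM in pLKO.1 and 196, 150 and 217 in the hairpins (log2 fold change -1.01, adjusted p = 0.0743 from limma). The paper lists both CDKN1A and CCND1 as lower with ELK4 knockdown, by a test that its methods do not name.

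**Figure D4:**
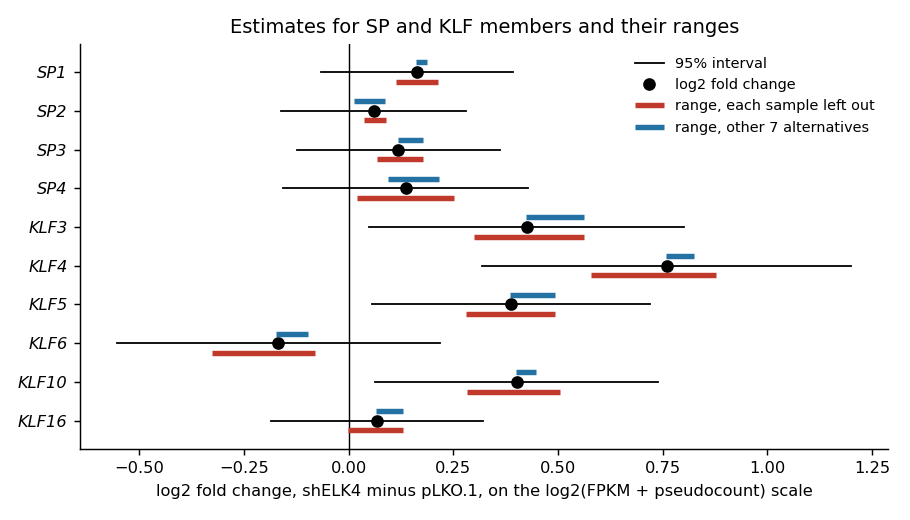
Log2 fold change of each member (black point) with its 95% interval from limma (black line), the range with each sample left out (red) and the range over the other 7 alternatives (blue). The intervals of KLF3, KLF4, KLF5 and KLF10 lie above 0, and those of the 4 SP genes include 0.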

How the data were processed

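Libraries of poly(A) RNA from 2 pLKO.1 and 3 shELK4 samples of HCT116 cells were run on an Illumina HiSeq. The FPKM values per gene were calculated by the authors with Cufflinks, scaled to mapped reads, and deposited by sample. The submitters' processing notes name Trimmomatic 0.36, HISAT2 2.0.5, Cufflinks 2.2.1 and HTSeq 0.9.1. The genome build is not given in the sources used here. In the files 4 of 20030 entries, under 2 repeated names, were dropped. The 10780 genes that reached an FPKM of 1 in 2 or more samples were tested with limma 3.58.1 in R 4.3.3 on log2(FPKM + 1) (trended empirical Bayes, no term but condition, Benjamini-Hochberg adjustment over all tested genes), which was tested on simulated data. The values are not counts, so no count test was used. Gene positions are from GENCODE release 44 (GRCh38) and promoters from RefSeq. Figures were drawn with matplotlib 3.10.9.

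The members and gene lists were chosen with earlier results of these data known. Named genes are the 10 members, ELK4, EPCAM and KRT18, from each list up to 5 genes whose groups did not overlap at an unadjusted p under 0.05 (otherwise the 2 with the largest change), and the 3 genes nearest to SP1, SP3 and KLF4. Other listed genes were named after their values were seen, and 1 gene that the rule names is not reported here. Alternatives were no FPKM limit, a pseudocount of 0.1, the 2 combined, a weight for each group, quantile normalization, median-of-ratios scaling, a block for the replicate number, and each sample left out.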

Additional observations from a re-analysis of the deposited data

How the results depend on the processing

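The log2 fold changes of the 10 members kept their sign under all 12 alternatives, except that of KLF16, which ranged from -0.00239 (without shELK4 replicate 2) to 0.13 with each sample left out. The count of members with an adjusted p under 0.05 was 0, and 1 (KLF4) with a weight for each group. The count at an unadjusted p under 0.05 was 4, all higher in shELK4. It was lower when either pLKO.1 sample was left out, which leaves the control group without a replicate. It was 3 with no FPKM limit, and 3 with each shELK4 sample left out. Without shELK4 replicate 1 the 3 were KLF4 and KLF10, both higher, and KLF6, which was lower. The count of members whose shELK4 values all lay above pLKO.1 was 5, and 6 to 7 with each sample left out, when 23.9% to 28.1% of tested genes did so. Over the other 4 gene lists 1 gene passed an adjusted p of 0.05, against 0 with no FPKM limit, 0 with a pseudocount of 0.1 as well, 3 with the weights and 0 to 2 with each sample left out. Over all genes it was 18, against 0, 0, 413 and 0 to 95 in the same order, with 95 without shELK4 replicate 2. ELK4 no longer passed with no FPKM limit (adjusted p = 0.114 from limma), with a pseudocount of 0.1 as well (0.145), or without either pLKO.1 replicate, shELK4 replicate 1 or shELK4 replicate 3 (0.0748 to 0.452). Both groups hold replicates 1 and 2, and the labels do not say whether samples of the same number were prepared together. Their deviations from the group means correlated by 0.08 and 0.02. With 2 controls, whose deviations mirror each other, this check cannot decide whether the numbers pair the samples. With the replicate block, shELK4_3 has no partner and carries no weight. Under this block 0 members passed an adjusted p of 0.05 and 4 an unadjusted p of 0.05. Of all genes, 22 passed an adjusted p of 0.05. The share of all tested genes at an unadjusted p under 0.05 was taken for the main fit only. The member counts at that limit under the alternatives therefore have no such share beside them. No p-value can separate a hairpin's own effect from ELK4 loss, and absolute depth is unknown.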
